A study of Homo sapiens with 6 samples.

Results

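The genes described here encode the nuclear subunits of the mitochondrial respiratory chain. They were chosen by symbol and gene type, as protein-coding genes named NDUFA, NDUFB, NDUFC, NDUFS or NDUFV with a number, SDHA to SDHD, the listed UQCR and COX genes, CYC1, and the ATP5F1, ATP5M and ATP5P genes. This rule was set with earlier results of these data known. The rule found 78 of the 19469 genes in the table, and all 78 such genes of the annotation were present. There were 36 genes of complex I, 4 of complex II, 9 of complex III, 11 of complex IV and 17 of complex V, with NDUFA4 placed in complex IV. The remaining gene, ATP5MGL, lies within another gene and was placed in no complex.

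L3.6pl is an established human pancreatic cancer line. The cells, grown without treatment in medium with serum, were sorted by flow cytometry on surface L1CAM, a cell adhesion molecule, into L1high (labelled L1CAM_POSITIVE) and L1low (labelled L1CAM_NEGATIVE) fractions, and polyadenylated RNA was sequenced from 3 libraries of each. Dead cells were left out at the sort. A characteristics field of the labels writes the line as L6.6pl, whereas the titles write L3_6PL. All cells thus came from a single line, and the sort is the only difference between the groups that the labels give. The labels do not say whether the libraries came from separate cultures or sorts, so p-values measure only the spread between these libraries, which may be technical. In sorted bulk RNA, fewer cells of a kind and less RNA per cell cannot be told apart.

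The respiratory chain passes electrons from NADH (complex I) and succinate (complex II) through ubiquinone to complex III, then by cytochrome c to complex IV, where oxygen is reduced. Complexes I, III and IV pump protons across the inner mitochondrial membrane, and complex V, the ATP synthase, uses the return flow to make ATP. A few core subunits are encoded in mitochondrial DNA, but most are nuclear genes whose products are imported, so the complexes draw on 2 genomes.

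The first stretch of these genes' promoters is shown because sites for NRF1, ETS-family factors such as GABPA, and YY1 are well known at such genes. The RefSeq promoter table (GRCh38.p14), which runs from 250 bases before to 50 bases after each gene's start, matched 63 of the 78 members. The motifs were searched on both strands as the NRF1 palindrome with any base at its sixth position, shown in capitals in the UQCRFS1 and SDHA sequences that follow, CCGGAAG for the ETS family and AAGATGGCG for YY1, and a promoter may hold more than 1 of them. The NRF1 motif was in 16 of 63 member promoters (25.4%), against 11.5% of the promoters of protein-coding genes in the table and 6.28% of all promoters. The ETS motif was in 20 (31.7%), against 19.2% and 10.7%. The YY1 motif was in 8 (12.7%), against 3.87% and 1.85%. At least 1 of the motifs was in 37 members (58.7%), against 30.7% and 17.0%. These shares describe letters and not bound sites.

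Below, the 250 bases before the start and the first 30 of the gene are given 5′ to 3′ on the gene's strand for COX5B, which passed the test described further on, and for 3 electron-transfer subunits that carry the other motifs, with motif matches in capitals. Positions name the first base of a match, with the first base of the gene as 0. COX5B (chr2:97645812-97646091, plus strand) had ETS matches at -37 and -5, UQCRFS1 (chr19:29213122-29213401, minus strand) an NRF1 match at -31, SDHB (chr1:17054003-17054282, minus strand) an ETS match at -128 and a YY1 match at 10, and SDHA (chr5:218070-218349, plus strand) NRF1 matches at -166, -117, -68 and -19. ATP5PB, the other member that passed the test, had no match in its window.
COX5B: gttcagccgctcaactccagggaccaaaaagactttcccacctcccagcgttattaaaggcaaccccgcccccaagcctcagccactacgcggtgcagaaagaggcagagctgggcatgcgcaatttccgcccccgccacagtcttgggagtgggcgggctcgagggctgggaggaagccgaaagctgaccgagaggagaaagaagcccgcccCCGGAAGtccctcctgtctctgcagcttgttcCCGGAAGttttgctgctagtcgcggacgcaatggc
UQCRFS1: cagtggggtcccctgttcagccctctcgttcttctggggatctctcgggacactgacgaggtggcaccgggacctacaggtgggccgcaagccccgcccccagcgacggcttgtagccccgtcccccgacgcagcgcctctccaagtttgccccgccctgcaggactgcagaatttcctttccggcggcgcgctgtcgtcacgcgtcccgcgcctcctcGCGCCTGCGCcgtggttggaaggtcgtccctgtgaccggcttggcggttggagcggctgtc
SDHB: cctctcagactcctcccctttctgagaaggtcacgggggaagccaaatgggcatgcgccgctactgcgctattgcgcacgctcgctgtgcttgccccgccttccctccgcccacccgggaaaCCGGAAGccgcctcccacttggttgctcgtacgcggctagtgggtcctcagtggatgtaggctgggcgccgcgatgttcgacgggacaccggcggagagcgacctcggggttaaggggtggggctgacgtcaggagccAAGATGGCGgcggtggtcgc
SDHA: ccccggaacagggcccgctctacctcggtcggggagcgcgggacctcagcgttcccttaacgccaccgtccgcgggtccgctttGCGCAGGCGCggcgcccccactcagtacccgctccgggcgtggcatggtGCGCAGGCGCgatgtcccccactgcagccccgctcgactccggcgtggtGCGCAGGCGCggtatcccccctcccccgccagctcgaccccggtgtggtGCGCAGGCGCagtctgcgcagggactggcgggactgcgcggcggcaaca

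The libraries held 16334610 to 21064685 counts, and the 10 genes with most reads took 3.58% to 4.08% of them. CPM are read counts scaled to a common library total after adjustment of each total by a TMM factor, which scales libraries to each other. L1CAM, on whose surface protein the cells were sorted, was at 84.0, 69.8 and 89.5 CPM in L1high and 17.7, 23.7 and 20.0 CPM in L1low. These did not overlap, with a log2 fold change of -1.99 (SE 0.12, adjusted p 4.69e-06 in the quasi-likelihood test of edgeR, with Benjamini-Hochberg correction across the genes tested). Fold changes are L1low over L1high throughout, so that a negative value is lower in L1low, and a gene is called at an adjusted p under 0.05 in that test. Of 19467 genes tested, 4.58% were called higher and 3.37% lower in L1low.

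The respiratory chain genes lay slightly lower in L1low, by small amounts that few genes carried past the test. Of the 78 members, 66 had a log2 fold change below 0, against 51.5% of all genes, and their median was -0.12 (a fold of 0.921), against -0.01 for all genes. The members ranged from -0.37 for COX7B to 0.16 for UQCRC1, and 59 were within 0.2 of 0. With a median SE of 0.08, the median change was 1.41 times the median SE, so a shift of this size is not detectable gene by gene with these libraries. Called lower were 2 members, COX5B of complex IV and ATP5PB of complex V, which is 2.56% of the members against 3.37% of all genes. No member was called higher, against 4.58% of all genes. In this fit the share of members called was thus below the background in both directions. That order turned for the lower direction with the replicate block (7.69% of the members against 5.87% of all genes) and with DESeq2 (5.13% against 4.11%). It also turned with offsets for GC content and length (7.69% against 6.84%), without L1high replicate 3 (3.85% against 3.15%) and without L1low replicate 3 (5.13% against 2.36%). Of protein-coding genes alone, 4.24% were called lower without the block and 7.32% with it, near the members' 7.69%. Except without L1low replicate 3, the members' shares thus stayed near the background. At an unadjusted p under 0.05, 15 members were lower and 1 was higher (19.2% and 1.28%, against 11.4% and 11.9% of all genes). The 3 L1low libraries lay below all 3 L1high libraries for 15 members (19.2%, against 13.7% of all genes) and above them for 2 (2.56%, against 15.2%).

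**Figure D1:**
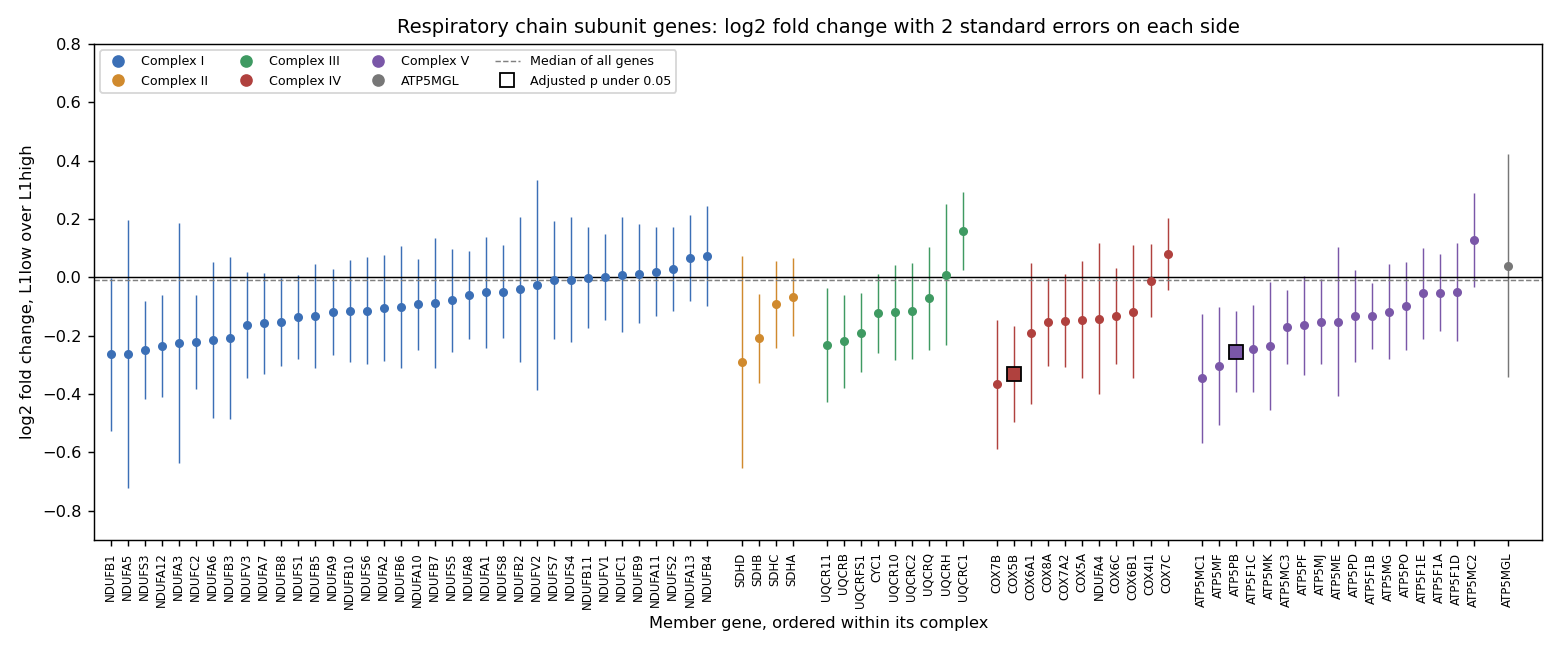
The log2 fold change (vertical axis, L1low over L1high) is plotted for each of the 78 members (horizontal axis), grouped by complex, with bars of 2 SE on each side. Most points lie between 0 and -0.3, 66 of 78 are below 0, and the 2 called members, COX5B and ATP5PB, are the large squares.

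L1low replicate 3 stood apart from the other L1low libraries for these genes. The summed level of the members was 9227, 9403 and 9350 CPM in L1high replicates 1, 2 and 3, and 8219, 8539 and 9260 CPM in L1low replicates 1, 2 and 3. On this scale the third L1low library thus fell within the L1high range, whereas the other 2 were below it. As a share of the library's counts without TMM factors, the members took 0.912% in L1low replicate 3. That was below the 0.929% to 0.940% of L1high, so this placing depended on the scaling. L1low replicate 3 was the highest of the L1low libraries for 59 of 78 members (75.6%, against 38.5% of all genes). Libraries of the same replicate number were taken as pairs, although the labels do not state a pairing. Within the pairs the median log2 fold change of the members was -0.21 in pair 1, -0.18 in pair 2 and 0.02 in pair 3. Lower were 74, 59 and 35 of 78 members. On the TMM scale, the lower level of the members therefore held within pairs 1 and 2 and not within pair 3. Without L1low replicate 3 the median was -0.17, 71 members were below 0 and 4 were called lower (SDHB, COX5B, COX7B and ATP5ME, with 2.36% of all genes called lower) and none higher (3.68%). Without L1low replicate 1 the median was -0.06, with no member called (2.44% of all genes called lower and 3.61% higher). No member was called without L1low replicate 2 (1.20% of all genes called lower and 2.02% higher) or L1high replicate 1 (1.28% and 2.18%) either, so that in these fits few calls were made among all genes. Summed cytosolic ribosomal protein genes were at 24787 and 26108 CPM in L1low replicates 1 and 2 and 29023 CPM in L1low replicate 3, against 25132 to 26879 CPM in L1high. The part of this in the members' values was not tested. The median transcript length of the members was 781 bases, against 2398.5 for all genes with a length, and with per-library offsets for GC content and length the median of the members was -0.08, with 62 of 78 below 0.

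**Figure D2:**
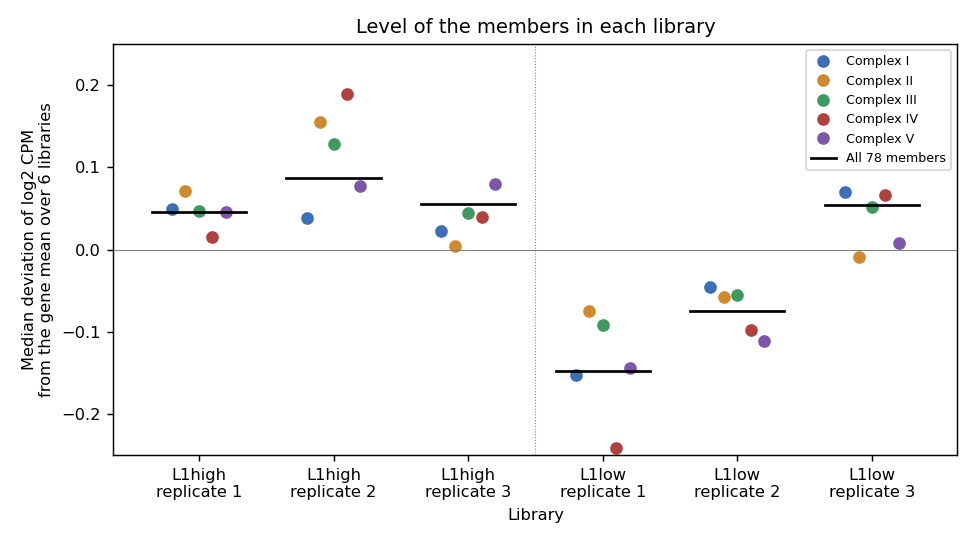
For each library (horizontal axis), the median deviation of log2 CPM from each gene's mean over the 6 libraries is shown for each complex (points) and for all 78 members (bars). The 3 L1high libraries are above 0, L1low replicates 1 and 2 are below it at -0.15 and -0.07, and L1low replicate 3 is at 0.05, level with L1high.

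When the replicate number was added as a block, 6 members were called lower and none higher, with 5.87% and 6.27% of all genes called. Beside COX5B and ATP5PB these were COX7B, ATP5F1C, ATP5MC1 and ATP5MF, which is 7.69% of the members. All 6 belonged to complexes IV (2) and V (4). Whether the complexes differed from each other was not tested. Without L1high replicate 3, the 5 libraries named in a sheet of the study's supplementary table, the median of the members was -0.11 and 3 were called lower (COX5B, ATP5PB and ATP5MK, with 3.15% of all genes called lower) and none higher (4.41%). DESeq2 called 4 members lower (COX5B, COX7B, ATP5PB and ATP5MC1, with 4.11% of all genes called lower) and none higher (5.13%). With the offsets for GC content and length, 6 members were called lower (NDUFS3, COX5B, COX8A, ATP5PB, ATP5MC1 and ATP5MF, with 6.84% of all genes called lower) and UQCRC1 higher (7.16%).

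Complex I, the largest group, had 29 of 36 genes below 0 and the median nearest to 0 of the 5 complexes, -0.10. None of its genes was called in either direction, and 4 of 36 (11.1%) had all L1low libraries below all L1high libraries, against 13.7% of all genes. The 7 core subunits, which include those that carry the flavin and the iron-sulfur clusters, had a median of -0.03, and the 29 accessory subunits, which surround the core, had a median of -0.10. NDUFV1, the flavin-bearing subunit that takes up NADH, was at 163, 148 and 176 CPM in L1high and 162, 159 and 165 CPM in L1low. The L1low values lay within the L1high range, and its log2 fold change was 0.00 within an interval of 2 SE from -0.15 to 0.15. NDUFS1, the largest iron-sulfur subunit, was at 66.1, 67.7 and 67.4 CPM in L1high and 60.4, 58.2 and 64.6 CPM in L1low. All 3 L1low values were below L1high, but the change of -0.14 (SE 0.07, adjusted p 0.287 by the edgeR test) did not pass. Per kilobase, the complex I genes with the highest level were NDUFA13 and NDUFB9, both accessory subunits. NDUFA13 was at 137, 134 and 138 CPM in L1high and 129, 149 and 151 CPM in L1low, and NDUFB9 at 163, 164 and 168 CPM against 147, 166 and 187 CPM. For both, the L1low values lay on each side of L1high. NDUFS3, a core subunit named here after its values were seen, had the smallest p of the complex, at 46.6, 44.3 and 50.6 CPM in L1high and 37.8, 39.3 and 41.9 CPM in L1low. Its groups did not overlap, and the change of -0.25 (SE 0.08) had an adjusted p of 0.0998 in the edgeR test.

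The 4 genes of complex II, succinate dehydrogenase, which also works in the TCA cycle, were all below 0, with a median of -0.15 and no call. SDHB, its iron-sulfur subunit, was at 150, 159 and 151 CPM in L1high and 123, 129 and 146 CPM in L1low. The L1low libraries were all below L1high, replicate 3 being the nearest, and the change of -0.21 (SE 0.08) had an adjusted p of 0.125 in the edgeR test (0.0466 without L1low replicate 3). SDHA, the flavoprotein that oxidises succinate, was at 149, 137 and 151 CPM in L1high and 136, 136 and 144 CPM in L1low. The values overlapped, with a change of -0.07 and an interval of 2 SE from -0.20 to 0.07. SDHC, a membrane anchor, was at 99.9, 107 and 90.9 CPM in L1high and 90.0, 95.7 and 93.3 CPM in L1low, which also overlapped. The other anchor, SDHD, had the most negative estimate of the complex, -0.29, and an SE of 0.18. The summed level of the complex was 433 ± 13.4 CPM in L1high and 393 ± 11.5 CPM in L1low (mean ± SD, n = 3 each), with no overlap.

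In complex III, the cytochrome bc1 complex, 7 of 9 genes were below 0 with a median of -0.12, and none was called. UQCRFS1, the Rieske iron-sulfur protein, was at 132, 135 and 128 CPM in L1high and 114, 110 and 123 CPM in L1low. These did not overlap, and the change of -0.19 (SE 0.07) had an adjusted p of 0.117 in the edgeR test. UQCRC1, a core protein that faces the matrix, went the other way, at 221, 201 and 226 CPM in L1high and 234, 244 and 245 CPM in L1low. It was the member with the highest fold change, 0.16 (SE 0.07, adjusted p 0.175 by the edgeR test), and was called higher (adjusted p 0.0402) only in the fit with offsets for GC content and length. CYC1, cytochrome c1, was at 256, 235 and 270 CPM in L1high and 228, 236 and 235 CPM in L1low. L1high replicate 2 lay within the L1low range, and the change of -0.12 had an interval of 2 SE from -0.26 to 0.01. The summed level of complex III was 1186 ± 6.85 CPM in L1high and 1125 ± 49.5 CPM in L1low (mean ± SD, n = 3 each). These sums narrowly did not overlap, with the lowest L1high library at 1181 CPM and the highest L1low library at 1180 CPM.

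Complex IV, cytochrome c oxidase, held the member with the smallest p. COX5B, a nuclear subunit on the matrix side of the enzyme, lies on chromosome 2 (97646062 to 97648383, plus strand, GRCh38). It was at 155, 176 and 157 CPM in L1high and 119, 127 and 142 CPM in L1low. The highest L1low library, replicate 3, was below the lowest L1high library, and the log2 fold change was -0.33 (SE 0.08, adjusted p 0.0310 in the edgeR test), a fold of 0.795. It was also called with the block (adjusted p 0.00783) and without L1high replicate 3 (0.0372) or L1low replicate 3 (0.0175), but the call was lost without L1high replicate 1, L1high replicate 2, L1low replicate 1 or L1low replicate 2, with adjusted p up to 0.148. COX7B, a small membrane subunit named after its values were seen, was at 134, 168 and 137 CPM in L1high and 99.3, 110 and 131 CPM in L1low. Again L1low replicate 3 was the closest to L1high, and the change of -0.37 (SE 0.11), the most negative of all members, had an adjusted p of 0.0681 in the edgeR test and 0.0118 with the block.

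The other complex IV genes included some of the highest levels per kilobase. COX6B1, which lies on the outer face of the enzyme, was at 276, 322 and 290 CPM in L1high and 232, 256 and 330 CPM in L1low. The third L1low library was the highest of the 6, and without it the log2 fold change of -0.12 became -0.27. COX4I1, the broadly expressed form of subunit 4, was at 280, 281 and 299 CPM in L1high and 275, 281 and 297 CPM in L1low. Its groups overlapped, with a change of -0.01 and an interval of 2 SE from -0.14 to 0.11. COX7C, named after its values were seen, was the second member whose L1low libraries all lay above L1high, at 116, 119 and 119 CPM against 126, 122 and 126 CPM. The difference was 0.08 (SE 0.06) and did not pass. In all, 10 of 11 genes were below 0 with a median of -0.15, and that median was -0.24 without L1low replicate 3 and -0.06 without L1low replicate 1.

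In complex V, the ATP synthase, 16 of 17 genes were below 0, with a median of -0.15. For 6 of the 17 (35.3%, against 13.7% of all genes) the L1low libraries lay below all L1high libraries. ATP5PB, subunit b of the peripheral stalk that holds the catalytic head in place, lies on chromosome 1 (111448864 to 111462773, plus strand, GRCh38). It was at 146, 157 and 137 CPM in L1high and 126, 121 and 121 CPM in L1low. Here L1low replicate 3 was as low as the other L1low libraries, and the log2 fold change was -0.25 (SE 0.07, adjusted p 0.0465 in the edgeR test), a fold of 0.838. The adjusted p was 0.0264 with the block and 0.0360 without L1high replicate 3, and the call was lost when any other library was left out (up to 0.186). WDR77, which overlaps ATP5PB on the opposite strand, had 6476 counts against 15157 for ATP5PB and a log2 fold change of -0.20 that did not pass the test (adjusted p 0.145 by the edgeR test).

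In the catalytic head of the synthase no gene was called. ATP5F1B, the catalytic beta subunit, had the highest level of all 78 members, both in CPM and per kilobase, at 1302, 1274 and 1350 CPM in L1high and 1170, 1177 and 1237 CPM in L1low. The groups did not overlap, and the change of -0.13 (SE 0.06, adjusted p 0.189 by the edgeR test) did not pass. ATP5F1A, the alpha subunit, was at 230, 225 and 244 CPM in L1high and 233, 212 and 230 CPM in L1low, which overlapped, with an interval of 2 SE from -0.18 to 0.08. ATP5ME, a small membrane subunit, was at 122, 130 and 128 CPM in L1high and 92.6, 106 and 143 CPM in L1low. Its L1low libraries spanned the L1high range on each side, and it was called lower (-0.34, adjusted p 0.0333 by the edgeR test) only without L1low replicate 3.

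Of the members that the block added to the calls, 3 were in this complex and were named after their values were seen. ATP5F1C, the gamma subunit of the rotating central stalk, was at 171, 190 and 184 CPM in L1high and 162, 140 and 157 CPM in L1low. ATP5MC1, a gene for the c-ring, was at 51.5, 44.01 and 58.4 CPM against 42.1, 36.0 and 42.9 CPM. ATP5MF, membrane subunit f, was at 44.8, 46.4 and 53.8 CPM against 35.3, 38.5 and 43.6 CPM. None of the 3 overlapped between groups, and their adjusted p was 0.0712, 0.0822 and 0.0967 in the edgeR test and 0.0435, 0.0106 and 0.0194 with the block. The 3 c-ring genes, which encode the same mature protein, were at -0.35 (ATP5MC1), -0.17 (ATP5MC3) and 0.13 (ATP5MC2, 2 SE interval -0.03 to 0.29). ATP5MC3, at 303, 305 and 281 CPM in L1high and 253, 266 and 271 CPM in L1low, did not overlap between groups. Without the block or another change of setting, none of the 3 was called. Besides the block, ATP5MC1 was called lower by DESeq2, with offsets for GC content and length, and without L1high replicate 2. Differences between the 3 were not tested. The summed level of complex V was 3342 ± 46.7 CPM in L1high and 3049 ± 148 CPM in L1low (mean ± SD, n = 3 each), with no overlap.

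**Figure D3:**
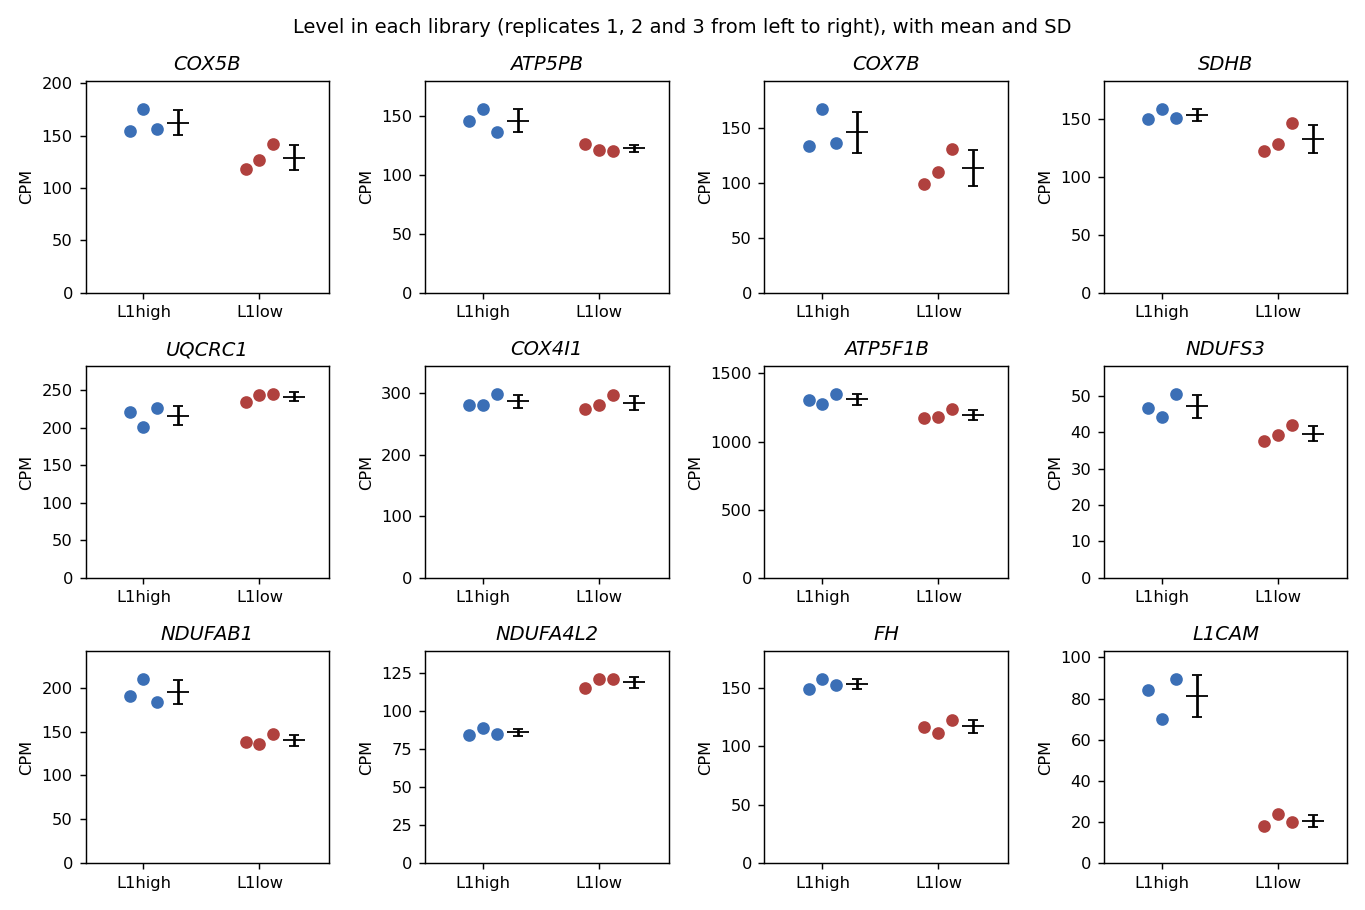
CPM (vertical axes, from 0) in each L1high and L1low library is shown for 8 members, NDUFAB1, NDUFA4L2, FH and L1CAM, with the mean and SD of the 3 libraries at the right of each group. COX5B, ATP5PB and NDUFAB1 are lower in L1low without overlap, COX4I1 overlaps, and NDUFA4L2 is higher at 115 to 121 CPM against 84.0 to 88.4 CPM.

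Levels of the members differed widely. Per kilobase of the annotated transcript, ATP5F1B (712 CPM per kilobase), COX6B1 (583), ATP5ME (397), COX4I1 (374) and NDUFA13 (268) were the highest, the median was 101, and NDUFA5 (2.65) and NDUFA3 (2.51) were the lowest. The total over 6 libraries ranged from 268 to 140244 counts a gene, and no member was under 10 counts in any library. The coefficient of variation between libraries of a group had a median of 5.58% in L1high and 9.09% in L1low. The least certain changes were those of NDUFA5 (SE 0.23) and NDUFA3 (SE 0.21).

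Some counts of these genes may lie elsewhere in the table. The reads were aligned with BWA, which does not split reads across splice junctions, and many members have processed pseudogenes, which are intron-free copies. Pseudogenes named after 32 of the members were in the table, 53 in all, with 119565 counts against 1008971 on the members. The 4 named after SDHA, with 2980 counts, are annotated as unprocessed and so are not such intron-free copies. For 6 members the pseudogenes held more counts than the gene. NDUFV2 had 2575 counts and its pseudogene 9027 (77.8% of both). The pseudogene share was 63.0% for NDUFA4, 58.5% for COX6A1, 54.9% for ATP5MK and 51.4% for NDUFB1, and it was 51.0% for ATP5PD. The values of these genes are therefore uncertain. With pseudogene counts added, the log2 fold change of NDUFV2 was -0.16 in place of -0.03, 67 of 78 members were below 0, the median was -0.12 and COX5B and ATP5PB remained the members called lower. The 46 members with no such pseudogene had a median of -0.12, with 38 below 0. Another retrogene, UQCRHL, held 19036 counts against 8126 for UQCRH.

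Genes overlapped by another gene of the table numbered 39 of the 78, on the same strand for 19. Overlap on the same strand touched NDUFC2 (8465 counts), whose read-through gene NDUFC2-KCTD14 held 7531, so these counts may come in part from the same reads.

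Of 6 respiratory subunits outside the rule, 2 were below 0, and the median was 0.04. Among the 6, 1 was called lower and 1 higher (16.7% each, against 3.37% and 4.58% of all genes). NDUFAB1, the mitochondrial acyl carrier protein that is also a complex I subunit, was at 190, 210 and 184 CPM in L1high and 138, 136 and 148 CPM in L1low, with no overlap and a log2 fold change of -0.47 (SE 0.07, adjusted p 0.00189 by the edgeR test). NDUFA4L2, a paralog of NDUFA4 known as a hypoxia-induced gene, was higher, at 84.0, 88.4 and 84.8 CPM in L1high and 115, 121 and 121 CPM in L1low (0.47, SE 0.07, adjusted p 0.00109). L1low replicate 3 was like the other L1low libraries for both. The other 4 such subunits analysed were not called. The 13 subunits encoded in mitochondrial DNA were not analysed here.

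Assembly factors, which build the complexes without staying in them, had medians below 0 for every complex. Over all 57 of them, 4 were called lower (7.02%, against 3.37% of all genes), and 8 with the block (14.04%, against 5.87%). Below 0 were 17 of 19 complex I assembly factors (median -0.14, 1 called lower, 2 with the block), 4 of 4 for complex II (-0.12, 1 called), 6 of 6 for complex III (-0.17, none called), 21 of 24 for complex IV (-0.14, 2 called, 5 with the block) and 4 of 4 for complex V (-0.14, none called). No assembly factor was called higher. Those called lower were TMEM126B, needed for complex I assembly, at 32.1, 37.2 and 26.6 CPM in L1high and 23.0, 25.0 and 22.3 CPM in L1low (adjusted p 0.0428 by the edgeR test), SDHAF3, which helps mature SDHB, at -0.48 (0.0445), and the complex IV factors CMC2 at -0.41 (0.00926) and COA7 at -0.38 (0.0160). SDHAF3 was not called without L1high replicate 3 (adjusted p 0.0669).

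Calls in 3 other mitochondrial lists were all in the lower direction. In protein import 20 of 22 genes were below 0 (median -0.16) and 5 were called lower (22.7%, against 3.37% of all genes), among them TIMM17A (-0.37), TOMM5 (-0.43) and TIMM23 (-0.33), parts of the translocases. In the TCA cycle and pyruvate list 21 of 25 were below 0 (-0.12) and 5 were called lower (20.0%). With the block 8 of the 25 were called lower, against 5.87% of all genes. FH, fumarase, was at 149, 158 and 152 CPM in L1high and 116, 112 and 123 CPM in L1low (-0.39, SE 0.07, adjusted p 0.00397 by the edgeR test). PDK4, a kinase that switches off pyruvate dehydrogenase and so acts against the list's function, was also lower, at 26.4, 27.8 and 21.3 CPM against 13.2, 16.9 and 10.1 CPM (-0.92, SE 0.17, adjusted p 0.00613). IDH3A, of the NAD-linked isocitrate dehydrogenase, was at -0.35. Among 78 mitochondrial ribosomal protein genes, 70 were below 0 (median -0.15) and 6 were called lower (7.69%), led by MRPL34 (-0.45), MRPL42 (-0.42) and MRPS23 (-0.30). The block called 14 of the 78 lower, against 5.87% of all genes. MRPS23 was not called without L1high replicate 3 (adjusted p 0.0713).

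Fewer or no calls were made in the remaining lists. Of 12 genes of mitochondrial DNA expression 11 were below 0 (-0.12), of 13 coenzyme Q and cytochrome c genes 10 (-0.10), and of 10 regulators of mitochondrial biogenesis 6 (-0.03), with none called. The block called 1 of the 13 coenzyme Q and cytochrome c genes lower, against 5.87% of all genes. The 82 cytosolic ribosomal protein genes had a median of 0.01, with 37 below 0 and 1 called, RPL28, which was higher (0.30).

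Genes of cell division were lower as well. Of 20 proliferation genes 19 were below 0 (median -0.24) and 10 were called lower (50.0%, against 3.37% of all genes), among them RRM2 (-0.56), PCNA (-0.50) and CDK1 (-0.62). Their summed level was 4862, 4907 and 4825 CPM in L1high and 4256, 4141 and 4238 CPM in L1low, so that L1low replicate 3, unlike for the members, was among the low libraries. The part of cell division in the members' values was not tested. All 5 epithelial markers were present in every library. KRT19 was called higher (0.63) and EPCAM lower (-0.30, adjusted p 0.0496 by the edgeR test), joined with the block by KRT8. Of the 5 markers, 4 were below 0 (median -0.04). Their sum, which includes KRT19, was 2696 to 3069 CPM in L1high and 3045 to 3233 CPM in L1low. Of 5 fibroblast or stellate markers 2 were analysed, LUM (called higher, 0.78) and ACTA2, with sums of 85.0 to 97.5 CPM and 138 to 159 CPM. COL1A2, DCN and PDGFRB, which define such cells, were not analysed here. Of the leukocyte markers only CD68 was analysed (8.42 to 8.81 and 9.37 to 11.3 CPM), and of the endothelial markers only PECAM1 (11.3 to 11.9 and 13.2 to 14.7 CPM). The part of these markers in the members' values was not tested.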

How the data were processed

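Poly(A) RNA of sorted cells was sequenced in paired-end, stranded libraries (3 L1high, 3 L1low). The authors aligned the reads with BWA to GRCh38 and counted them per gene with featureCounts on Ensembl release 94, and the deposited values are these raw counts. Versions and options are not given in the sources used here. Every gene of the table had at least 1 CPM in 2 or more of the 6 libraries. Of 19469 gene IDs, 19344 matched GENCODE release 44, which gave symbols, lengths and positions, and genes without a symbol held 0.315% of counts.

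Counts were tested with edgeR 4.0.16 (R 4.3.3): TMM factors, filterByExpr, the quasi-likelihood F-test on group, and Benjamini-Hochberg adjustment over all 19467 genes kept. CPM are counts scaled to a common library total, with each library's total multiplied by its TMM factor. SE were derived as the absolute log2 fold change divided by the square root of that test's F statistic. Promoter letters came from RefSeq. In a simulation of this comparison on 19469 genes, 185 of 200 genes given a log2 change of 1 were recovered (92.5%), with 14 false of 199 calls. The simulated libraries were independent, with the same dispersion for every gene. Changes as small as those of the members were not simulated, so this recovery does not apply to them. Intervals cover 2 SE. Summed levels and medians carry no test.

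The replicate numbers, taken from the titles, were checked for pairing. Over 16066 genes, deviations from the group means correlated at 0.122, 0.106 and 0.324 for numbers 1, 2 and 3. L1high replicate 2 correlated slightly more with L1low replicate 1 (0.130), and L1high replicate 1 with L1low replicate 2 was at 0.066. These values therefore do not settle the pairing of numbers 1 and 2. The numbers were taken as pairs all the same. The second principal component, with 22.8% of the variance, set replicate 3 of each group apart from the others. The fit without the block is the one reported unless the block is named. Pairwise values used log2(CPM + 0.5).

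The members and gene lists were chosen with earlier results of these data known. Genes were named by rule: called members (at most 5 a complex), the 2 with the highest level per kilobase in each complex, 10 landmark subunits, members whose call is lost without L1high replicate 3, up to 3 called genes of each other list, and up to 5 members outnumbered by their pseudogenes. Others are said to be named after their values were seen, or are counted in a list. Alternatives were DESeq2 1.42.0, limma-voom 3.58.1, other scalings and filters, offsets for GC content and length, added pseudogene counts, the replicate block, and leaving out each library.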

Additional observations from a re-analysis of the deposited data

How the results depend on the processing

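The replicate block moved the number of genes called from 1548 to 2363 and of members called lower from 2 to 6, and it ended no call of a named gene. Offsets for GC content and length gave 2726 calls, with 6 members called lower and 1 higher. DESeq2 called 4 members lower. RLE, upper-quartile or no factors, limma-voom, both count filters and added pseudogene counts each called 2 members lower and 0 higher. When each library was left out in turn, 627 to 1473 genes were called, the lowest counts being 627 without L1low replicate 2 and 674 without L1high replicate 1, and members called lower numbered 0 to 4, with 0 called higher. The median of the members ranged from -0.17 (without L1low replicate 3) to -0.06 (without L1low replicate 1) in these fits and from -0.13 to -0.08 under the other settings, and L1CAM from -2.10 to -1.89. Of 1200 values under alternatives 1071 held, 51 fell below the threshold, 4 rose above it, 74 moved and 0 reversed. The cause of these differences was not tested. With 3 libraries a group, changes near the members' median SE of 0.08 are not detectable.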
